A study of Mus musculus with 8 samples.

Results

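Wnt proteins are secreted, lipid-modified signals that pass between neighbouring cells. The 10 genes described here are a set of Wnt ligand genes named for the epidermis: Wnt2, Wnt3, Wnt3a, Wnt4, Wnt5a, Wnt6, Wnt7b, Wnt10a, Wnt10b and Wnt16. They were chosen by name, with earlier results of these data known, from the 49315 genes counted, in which 19 Wnt ligand genes were found. RNA sequencing gave their transcript levels in isolated back skin epidermis of mice aged 22 months. The 5 Tgfa KO libraries come from mice labelled as knockouts of Tgfa, whose product activates the EGF receptor. The 3 WT libraries come from wild-type mice of the same age. The sources used here do not give the strain, the structure of the Tgfa allele or whether each library is 1 animal, so p-values measure only the spread between these libraries. The title of the series places the comparison in hair follicle function and hair loss with age. All 10 genes passed the filter on low counts and were among the 19239 genes tested.

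In the best known branch of the pathway, a Wnt ligand binds a Frizzled receptor together with the co-receptor Lrp5 or Lrp6, beta-catenin is spared from destruction, and it enters the nucleus to act with the TCF/LEF factors on target genes such as Axin2. Other Wnt ligands, Wnt5a the best studied, act mainly through Ror and Ryk receptors and the planar polarity proteins on cell shape and orientation. In skin, Wnt signals are needed to form hair follicles in the embryo and to start each new hair growth phase in the adult, and keratinocytes are themselves a main source of the ligands.

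The libraries differed in ways that genotype did not explain. Total counts ranged from 5313552 to 17417500 in the KO libraries and from 12968728 to 18292303 in the WT libraries. KO replicate 2, WT replicate 3 and WT replicate 2 held reads on genes that were silent in the other libraries, at 6.29, 2.37 and 1.11 counts per kb of gene length, against 0.067 to 0.285 in the other 5. Malat1, a nuclear noncoding RNA, took 4.88% of the library labelled KO replicate 1 and 6.61% of WT replicate 3, against 1.34% to 1.84% elsewhere. Tgfa itself was at 131.7, 34.4, 43.3, 36.2 and 70.2 CPM (counts scaled to library size with TMM factors, the measure for comparing libraries) in KO replicates 1 to 5, against 92.5, 85.1 and 111.7 CPM in WT replicates 1 to 3. The library labelled KO replicate 1 was above every WT library and goes against its label, and KO replicate 1 stands below for that label alone. The names of the 3 WT libraries and of KO replicates 1 and 2 carry the ending br, and those of KO replicates 3 to 5 carry bl. Keratinocyte markers (8 genes, among them Krt5, Krt14 and Krt10) summed to 10900 to 27600 CPM in KO and 8630 to 22300 CPM in WT libraries with none at 0, and were lowest in WT replicate 3 and KO replicate 2. Markers of fibroblasts (8 genes) summed to 25.6 to 102 CPM in KO and 40.7 to 47.5 CPM in WT libraries, with 2 of them at 0 in KO replicate 3. The sum of 102 CPM was that of KO replicate 2, and marker sums are not corrected for reads on silent genes.

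Of the 10 ligands, 4 supplied most of the transcript. On the scale of TPM, counts per length scaled to the same total in each library so that genes can be compared within it, the means over all 8 libraries were 88.3 ± 40.1 for Wnt3, 71.1 ± 23.5 for Wnt7b, 39.5 ± 22.1 for Wnt10a and 29.9 ± 18.1 for Wnt4 (SD, n = 8). Then came Wnt5a at 8.47 ± 5.11, Wnt3a at 5.96 ± 4.06, Wnt16 at 4.91 ± 2.47, Wnt10b at 3.95 ± 2.34, Wnt6 at 3.49 ± 1.72 and Wnt2 at 2.5 ± 2.07 TPM. Wnt7b stood above Wnt10a, and Wnt4 above Wnt5a, in 8 of 8 libraries, and Wnt10a above Wnt4 in 7. Other neighbours in this order were less distinct, since Wnt3 was above Wnt7b in 6 libraries, Wnt5a above Wnt3a in 6, Wnt3a above Wnt16 in 5, Wnt16 above Wnt10b in 6, Wnt10b above Wnt6 in 6 and Wnt6 above Wnt2 in 4. In KO libraries the mean of Wnt3 (93.6 TPM) was above that of Wnt7b (65.4 TPM), while in WT libraries the means were 79.5 TPM for Wnt3 and 80.5 TPM for Wnt7b. The 10 ligands together came to 269 ± 131 TPM in KO (n = 5) and 240.0 ± 67.0 TPM in WT libraries (n = 3), lowest at 82.4 TPM in KO replicate 2. In CPM, the measure for comparing libraries, they came to 388 ± 90.4 in KO and 335 ± 60.3 in WT libraries. There KO replicate 2, at 253 CPM, was close to WT replicate 3, at 270.9 CPM. The 9 other Wnt ligand genes came to 9.73 ± 5.0 TPM in KO and 8.46 ± 3.44 TPM in WT libraries. Highest among them were Wnt11 and Wnt2b, with means of 2.58 and 2.09 TPM over all 8 libraries, beside 2.5 TPM for Wnt2.

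**Figure D1:**
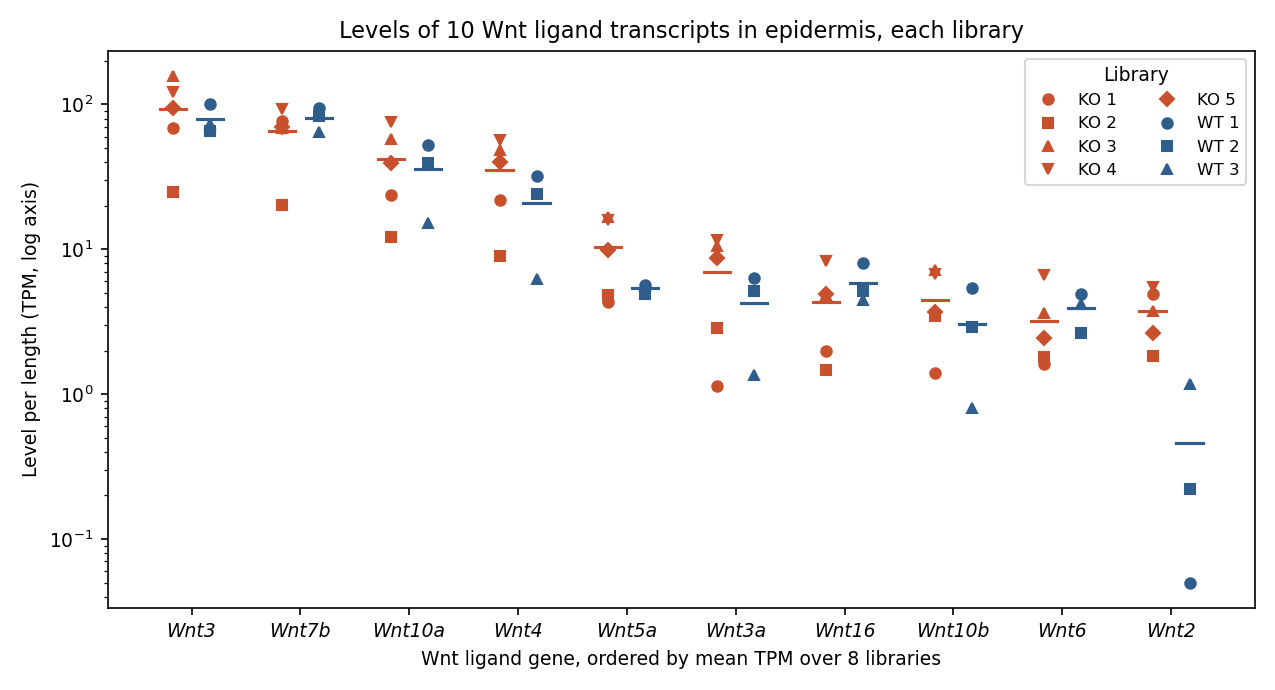
Level per length (TPM, log axis) of the 10 Wnt ligand genes in each library, ordered by the mean over 8 libraries, with Tgfa KO libraries left of WT libraries and a bar at each group's mean. Wnt3, Wnt7b, Wnt10a and Wnt4 lie above the other 6 genes in mean level, and the lowest mark, for Wnt2 in WT replicate 1, stands for a count of 0 and is drawn at 0.05 TPM, since a log axis has no 0.

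Promoters are shown for the ligand with the highest level (Wnt3), for Wnt2, whose groups did not overlap, and for Wnt3a and Wnt10b, whose levels followed each other over the libraries. RefSeq start sites and sequences on GRCm38.p6 were at hand for 7 of the 10 genes, and Wnt5a, Wnt7b and Wnt10a are not shown. Each sequence reads 5′ to 3′ on the strand of its gene and ends before both the RefSeq start and the gene start in the count files, which for Wnt2 lies 140 bases before the RefSeq start. Capitals mark the GC box GGGCGG and the CCAAT box, each on either strand, so that CCGCCC and ATTGG are the same elements on the opposite strand.
Wnt3, chr11:103773925-103774149, plus strand: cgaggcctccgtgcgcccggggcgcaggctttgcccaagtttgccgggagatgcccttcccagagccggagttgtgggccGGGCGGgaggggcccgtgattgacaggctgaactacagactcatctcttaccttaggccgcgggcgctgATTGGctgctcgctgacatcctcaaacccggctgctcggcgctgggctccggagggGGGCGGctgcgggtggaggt
Wnt2, chr6:18030586-18030695, minus strand: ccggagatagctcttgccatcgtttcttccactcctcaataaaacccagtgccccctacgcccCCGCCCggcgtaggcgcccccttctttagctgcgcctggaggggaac
Wnt3a, chr11:59290753-59291001, minus strand: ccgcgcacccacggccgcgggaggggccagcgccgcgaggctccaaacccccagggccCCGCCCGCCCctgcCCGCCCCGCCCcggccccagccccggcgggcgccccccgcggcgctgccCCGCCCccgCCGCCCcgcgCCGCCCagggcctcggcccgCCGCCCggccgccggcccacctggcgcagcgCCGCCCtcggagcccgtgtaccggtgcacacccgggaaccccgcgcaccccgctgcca
Wnt10b, chr15:98778151-98778400, minus strand: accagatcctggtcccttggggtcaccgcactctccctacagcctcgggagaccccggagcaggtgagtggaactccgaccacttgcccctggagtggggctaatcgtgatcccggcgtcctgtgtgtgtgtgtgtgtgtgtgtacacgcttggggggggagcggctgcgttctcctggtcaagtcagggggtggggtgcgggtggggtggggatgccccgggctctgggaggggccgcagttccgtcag
Over the full window of 300 bases (250 before and 50 after the RefSeq start), Wnt3a held 9 GC boxes, some of which overlap, and Wnt10b held none. Wnt3 and Wnt2 held 2 GC boxes each, Wnt3 also 2 CCAAT boxes and Wnt2 1. Among all 32544 promoters of the table, 35.9% hold a GC box and 37.4% a CCAAT box. The AP-1 motif TGANTCA (in 7.79% of all promoters), the TCF/LEF core CTTTGA (16%), the CRE motif TGACGTCA (1.80%) and the TATA box TATAAA (13.6%) were in none of the 7 windows on either strand. The 7 windows were 58.0% to 86.3% G plus C, where the median of all promoters is 53.0%.

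The 4 abundant ligands each took a share of the pool that differed between libraries. Wnt3 was 34 ± 4.59% of the summed TPM of the 10 genes in KO and 33.9 ± 6.83% in WT libraries, ranging from 30.3% to 41.6% in KO and from 28.1% to 41.4% in WT libraries. Wnt7b was 25.5 ± 7.0% in KO and 34.2 ± 3.22% in WT libraries, and the 37.1% of the library labelled KO replicate 1 was above all 3 WT libraries. Wnt10a was 14.9 ± 2.64% in KO and 14.2 ± 4.74% in WT libraries, ranging from 11.5% to 18.9% in KO and from 8.69% to 16.9% in WT libraries. Wnt4 ranged from 10.7% to 14.5% in KO and from 3.51% to 10.4% in WT libraries, so the groups did not overlap, with the closest libraries 10.7% in KO and 10.4% in WT. Wnt16 ranged from 0.963% to 2.07% in KO and from 2.20% to 2.61% in WT libraries, again without overlap. In CPM the groups of both genes overlapped, and 88.4% of the Wnt16 count of KO replicate 2 was at the level of reads on silent genes. Over all tested genes, 3.4% had every KO library above every WT library in CPM, and 1.75% every KO library below. How often shares of a pool separate in this way was not computed. Wnt2 was 0.959% to 2.38% in KO and 0% to 0.663% in WT libraries. Wnt3, Wnt7b, Wnt10a and Wnt4 together made up 80.3% to 92.5% of the pool, lowest in KO replicate 2. These shares are a description and were not tested.

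**Figure D2:**
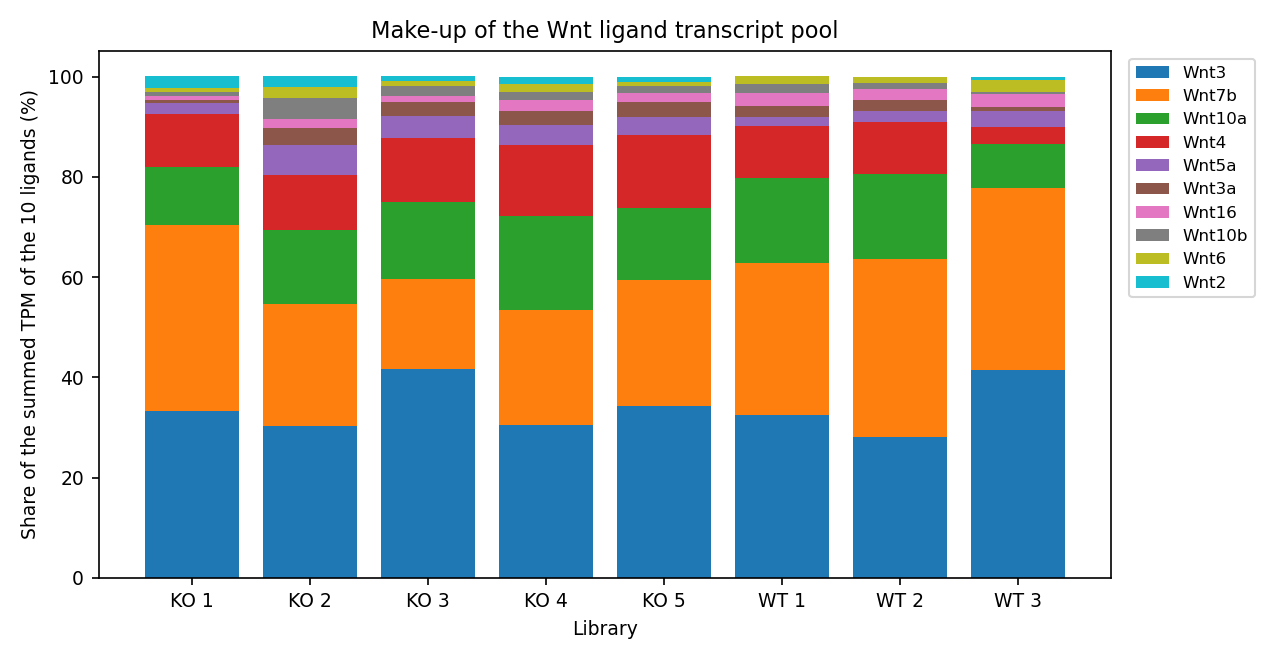
Share of each ligand in the summed TPM of the 10 Wnt ligand genes (%, stacked to 100) in each library, the 5 Tgfa KO libraries left of the 3 WT libraries. Wnt3 and Wnt7b make up 53.4% to 77.8% of every pool, and the Wnt4 band is thinnest in WT replicate 3, at 3.51%.

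Between Tgfa KO and WT libraries, none of the 10 ligands passed an adjusted p of 0.05 (edgeR, Benjamini-Hochberg over all 19239 genes), a threshold that 1 gene passed in all (0.0052%). Wnt2 and Wnt5a were the 2 members with an unadjusted p under 0.05, both higher in KO, where 854 of all tested genes (4.44%) were higher at that level. Log2 fold changes (KO minus WT) were positive for 7 members and negative for Wnt6, Wnt7b and Wnt16, with a median of 0.50, where 61.9% of all tested genes were positive with a median of 0.16. With other scalings (RLE, upper quartile, library totals) the counts of 7 and 3 were the same and the members' median was 0.47 to 0.57. Within the libraries ending in br alone, 4 members were positive and 6 negative, with a median of -0.15, where that of all tested genes was 0.25. With the label ending as a covariate the counts were also 4 and 6 and the median -0.12. All WT libraries end in br, so the genotype term of that fit also rests on KO replicates 1 and 2 against WT. It is thus no separate check from the libraries ending in br. In Tgfa the library labelled KO replicate 1 goes against its label. KO replicate 2 had the lowest total count and the most reads on silent genes. In bulk epidermis, fewer cells of a type that makes a ligand and less of its RNA per cell cannot be told apart.

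**Figure D3:**
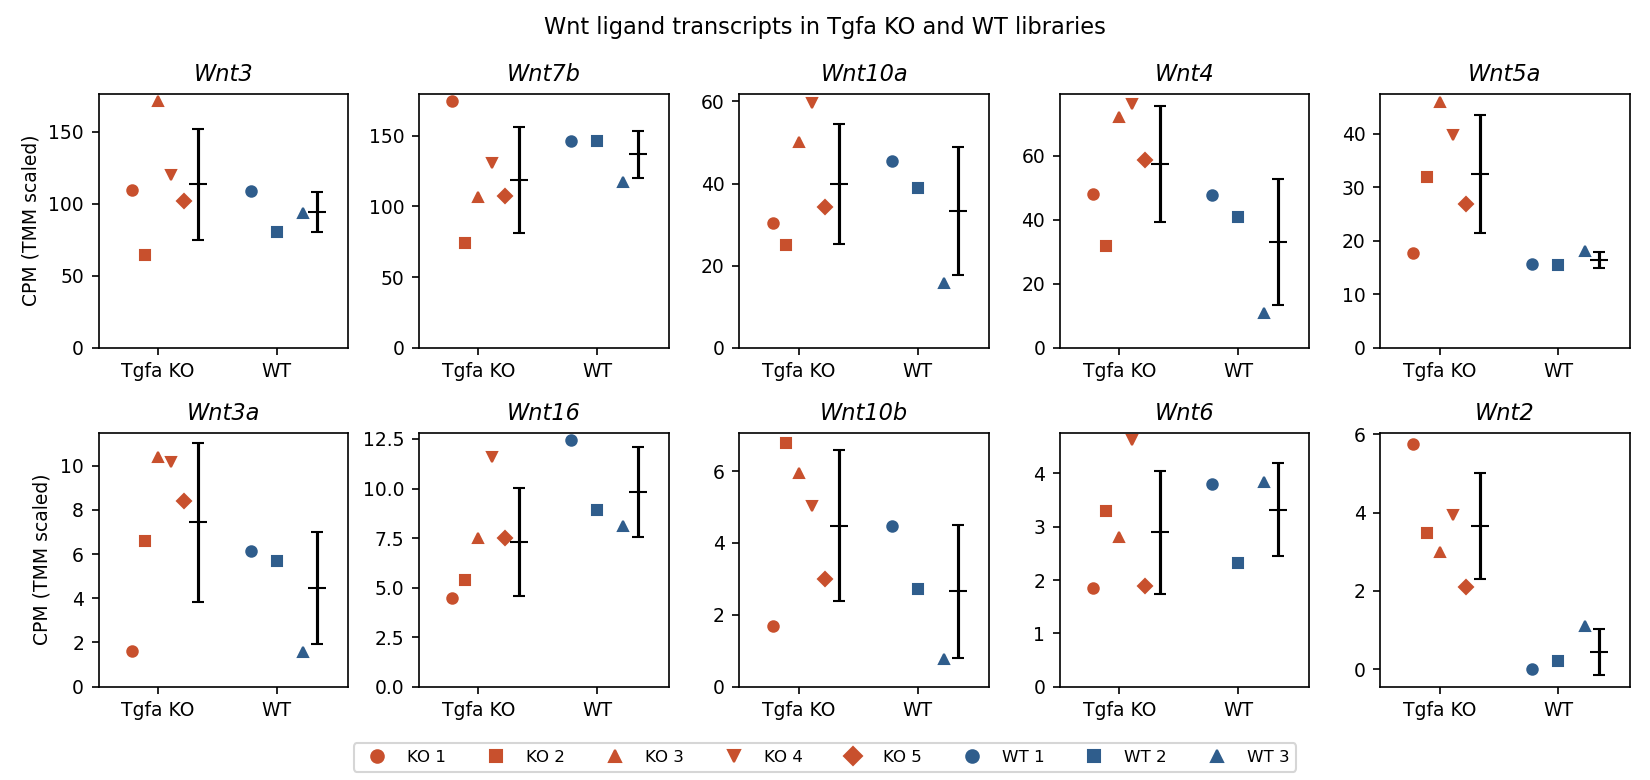
TMM-scaled CPM of each Wnt ligand gene in the 5 Tgfa KO libraries (left of each panel) and the 3 WT libraries (right), with the mean and SD of each group beside the points, each panel on its own scale. Wnt2 is the 1 gene whose groups do not overlap, with all 5 KO libraries between 2.09 and 5.75 CPM and all 3 WT libraries at or below 1.09 CPM.

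Wnt2 (ENSMUSG00000010797, chromosome 6, 17988940 to 18030585, minus strand, GRCm38), which in mouse embryos acts in lung formation and placental growth, was the member with the largest fold and the lowest level. Its level was 5.75, 3.47, 3.0, 3.94 and 2.09 CPM in KO replicates 1 to 5, from 78, 20, 48, 69 and 30 counts, against 0, 0.198 and 1.09 CPM in WT replicates 1 to 3, from 0, 3 and 14 counts. Every KO library was above every WT library, as in 3.4% of all tested genes, while 1.75% had every KO library below every WT library. Wnt2 passed the filter on low counts through its KO libraries, since WT replicates 1 and 2 held 0 and 3 counts. Its place among the tested genes thus depends on its level in KO. The log2 fold change was 3.09 (95% interval 0.61 to 5.56, SE 1.11, adjusted p = 0.677 by edgeR), and the exact permutation p of 0.0179 is the smallest that the 56 splits of 8 libraries can give.

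Part of these Wnt2 counts lay at the level of background reads. For a gene of its length, the reads per kb on silent genes give 14.2 of the 20 counts in KO replicate 2, 2.5 of the 3 in WT replicate 2 and 5.35 of the 14 in WT replicate 3. Summed over the groups, that background came to 6.27% of the 245 counts in KO and 47.4% of the 17 counts in WT libraries. With it subtracted, Wnt2 was at 5.70, 1.01, 2.99, 3.93 and 2.07 CPM in KO replicates 1 to 5, against 0, 0.0331 and 0.676 CPM in WT replicates 1 to 3. The closest values, 1.01 CPM in KO replicate 2 and 0.676 CPM in WT replicate 3, rest on 5.8 and 8.7 counts above background. The groups still did not overlap, but counts this few leave the order of those libraries uncertain. The log2 fold change was 3.55 (edgeR adjusted p = 0.460). Among libraries ending in br alone it was 3.45 (edgeR adjusted p = 0.993). The KO libraries ending in br had a mean of 4.61 CPM, against 3.01 CPM in those ending in bl. Without the library labelled KO replicate 1 the log2 fold change was 2.85 (edgeR adjusted p = 0.338), and without WT replicate 3 it was 5.12 (edgeR adjusted p = 0.415). The ratio of the summed counts per library size was 9.8 over all libraries, with an exact counting interval of 6 to 17.1.

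A limma voom fit gave libraries far from the fitted values less weight. In it Wnt2 rose, with a log2 fold change of 4.81 (limma voom adjusted p = 0.0415), and 3.39% of all tested genes rose. WT replicate 3 and KO replicates 1 and 2 had weights of 0.339, 0.284 and 0.366, against 1.47 to 2.26 in the rest. Wnt2 also rose without WT replicate 3 and KO replicates 1 and 2 (log2 fold change 4.88, edgeR adjusted p = 0.00879), where 5.25% of genes rose. The weighted fit leans on nearly the same libraries as that subset, so the 2 fits are no separate checks. That subset sets KO libraries ending in bl against WT libraries ending in br, so genotype and label ending cannot be told apart in it. The weighted fit shares most of this limit. With the ending as a covariate, where the genotype term rests on KO replicates 1 and 2 against WT, Wnt2 was 3.45 (edgeR adjusted p = 0.633). In the subset the WT side is 3 counts in all against 147 in KO, a ratio of 33.8 with a counting interval of 11.3 to 166. Both intervals cover counting error alone.

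Wnt5a (ENSMUSG00000021994, chromosome 14, 28504750 to 28527447, plus strand), the main ligand of the branch that acts without beta-catenin, had 17.7, 32.0, 45.95, 39.8 and 26.9 CPM in KO replicates 1 to 5, against 15.7, 15.5 and 18.1 CPM in WT replicates 1 to 3. KO replicates 2 to 5 were above all WT libraries, while the library labelled KO replicate 1 was within the WT range. Wnt5a averaged 32.5 ± 11 CPM in KO (SD, n = 5) and 16.4 ± 1.43 CPM in WT libraries (n = 3), a log2 fold change of 0.98 (95% interval 0.30 to 1.67, SE 0.31, adjusted p = 0.580 by edgeR, exact permutation p = 0.0714). It rose in the fit with library weights (log2 fold change 1.2, limma voom adjusted p = 0.0136) and without WT replicate 3 and KO replicates 1 and 2 (1.24, edgeR adjusted p = 0.00981), where genotype and label ending coincide. The weighted fit gives those libraries little weight, so it is no separate check from the subset. With the ending as a covariate the log2 fold change of Wnt5a was 0.59 (edgeR adjusted p = 0.637). The log2 fold change was 1.14 with the library labelled KO replicate 1 left out (adjusted p = 0.138 by edgeR). For the KO libraries ending in bl against all WT libraries it was 1.13 (adjusted p = 0.0763 by edgeR), and 0.0579% of all genes rose there. Among libraries ending in br alone the value was 0.50 (edgeR adjusted p = 0.993), and 26.7% of the Wnt5a count of KO replicate 2 was at the level of background reads. The KO libraries ending in bl averaged 37.5 CPM and those ending in br 24.8 CPM. Dermal papilla cells and fibroblasts of the skin also express Wnt5a. The 8 dermal papilla markers summed to 22.5 to 87.5 CPM in KO and 30.6 to 32.3 CPM in WT libraries, with 1 or 2 of them at 0 in 4 KO and 1 of them in 2 WT libraries. KO replicate 2 had the highest sums of dermal papilla and fibroblast markers (87.5 and 102 CPM) with 32.0 CPM of Wnt5a. KO replicate 3 had 24.8 and 25.6 CPM of these markers with 45.95 CPM of Wnt5a. The sums are not corrected for background reads, which were highest in KO replicate 2. Endothelial, muscle and adipocyte markers were also highest there (91.7, 39.6 and 32.0 CPM), against at most 20.9, 13.7 and 6.64 CPM elsewhere. The part of dermal papilla cells, fibroblasts or background in these values was not tested.

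Wnt4 (chromosome 4, 137277489 to 137299726, plus strand), which basal cells of the epidermis between follicles express, had 48.05, 31.8, 72.1, 76.1 and 58.7 CPM in KO replicates 1 to 5, against 47.6, 40.75 and 10.8 CPM in WT replicates 1 to 3. WT replicate 3 was far below the others, and KO replicate 2 lay below the other WT libraries. The log2 fold change was 0.80 (95% interval -0.23 to 1.82, SE 0.46, adjusted p = 0.853 by edgeR), and 0.37 without WT replicate 3. Without WT replicate 3 and KO replicates 1 and 2 together, Wnt4 rose (0.61, edgeR adjusted p = 0.0320), with 72.1, 76.1 and 58.7 CPM in the remaining KO libraries, against 47.6 and 40.75 CPM in WT. Those KO libraries all end in bl and those WT libraries in br, and with the ending as a covariate Wnt4 was 0.27 (edgeR adjusted p = 0.875). With library weights it was 0.77 and missed the threshold (limma voom adjusted p = 0.0970), and among libraries ending in br it was 0.20.

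Wnt3 (chromosome 11, 103774150 to 103817957, plus strand), a beta-catenin ligand that shortens hair when overexpressed in mouse skin, had 109.6, 64.4, 171, 120.1 and 102 CPM in KO replicates 1 to 5, against 108.5, 80.5 and 93.3 CPM in WT replicates 1 to 3. KO libraries lay both above and below all WT libraries. The log2 fold change was 0.27 (95% interval -0.40 to 0.94, SE 0.30, adjusted p = 0.933 by edgeR). Its paralog Wnt3a (chromosome 11, 59248033 to 59290752, minus strand), which helps cultured dermal papilla cells keep their hair-inducing activity, had 1.62, 6.60, 10.4, 10.2 and 8.42 CPM in KO replicates 1 to 5, against 6.16, 5.69 and 1.56 CPM in WT replicates 1 to 3. The lowest libraries of Wnt3a were WT replicate 3 and the library labelled KO replicate 1, the same pair that was highest in Malat1, and the part of RNA quality in this was not tested. Wnt3a had a log2 fold change of 0.73 with an SE of 0.62 (adjusted p = 0.918 by edgeR), and 45.7% of its count in KO replicate 2 and 32.7% in WT replicate 3 were at the level of background reads.

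Wnt10a and Wnt10b are close relatives that signal through beta-catenin in skin. WNT10A mutations in people affect hair, teeth and nails, and Wnt10b is one of the earliest Wnt genes seen in the forming hair follicle of the mouse. Wnt10a (chromosome 1, 74791516 to 74804179, plus strand) had 30.3, 25.0, 50.1, 59.7 and 34.2 CPM in KO replicates 1 to 5, against 45.5, 38.9 and 15.7 CPM in WT replicates 1 to 3. Its log2 fold change was 0.26 (95% interval -0.61 to 1.13, SE 0.39, adjusted p = 0.935 by edgeR). WT replicate 3 was again the lowest library, and without it the value was -0.09. Wnt10b (chromosome 15, 98771753 to 98778150, minus strand) had 1.70, 6.77, 5.94, 5.02 and 2.99 CPM in KO replicates 1 to 5, against 4.48, 2.71 and 0.782 CPM in WT replicates 1 to 3. The Wnt10b log2 fold change was 0.74 (SE 0.64, adjusted p = 0.919 by edgeR). Its 2 lowest libraries were those of Wnt3a, and 37.6% of its count in KO replicate 2 and 55.4% in WT replicate 3 were at the level of background reads.

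Wnt7b, Wnt16 and Wnt6 had negative fold changes, none past the threshold. Wnt7b (chromosome 15, 85535439 to 85581821, minus strand), which hair follicle stem cells express and which takes part in starting hair growth in mice, had 175, 74.3, 107, 130.5 and 107 CPM in KO replicates 1 to 5, against 147, 147 and 118 CPM in WT replicates 1 to 3. KO replicates 2, 3 and 5 were below all WT libraries and the library labelled KO replicate 1 above all of them. The Wnt7b log2 fold change was -0.21 (95% interval -0.83 to 0.42, SE 0.28, adjusted p = 0.935 by edgeR). Wnt16 (chromosome 6, 22288227 to 22298522, plus strand), also found in the hair follicle bulge, had 4.50, 5.38, 7.5, 11.6 and 7.52 CPM in KO replicates 1 to 5, against 12.4, 8.93 and 8.13 CPM in WT replicates 1 to 3. KO replicate 4 was the 1 KO library of Wnt16 within the WT range, and the log2 fold change was -0.42 (95% interval -1.18 to 0.34, SE 0.34, adjusted p = 0.909 by edgeR, exact permutation p = 0.179). In KO replicate 2, 88.4% of the Wnt16 count was at the level of background reads, and with background subtracted in all libraries the fold change was -0.61. With the label ending as a covariate it was -1.0 (edgeR adjusted p = 0.633), and among libraries ending in br -1.08 (edgeR adjusted p = 0.993). Wnt6 (chromosome 1, 74771892 to 74785322, plus strand), known in the mouse kidney as a signal for tubule formation, ranged from 1.84 to 4.62 CPM in KO and from 2.32 to 3.83 CPM in WT libraries. Its groups overlapped, and the log2 fold change was -0.20 with an SE of 0.49 (adjusted p = 0.955 by edgeR). Of the Wnt6 count in KO replicate 2, 72.5% was at the level of background reads. With background subtracted in all libraries the Wnt6 fold change was -0.41 (edgeR adjusted p = 0.858).

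**Figure D4:**
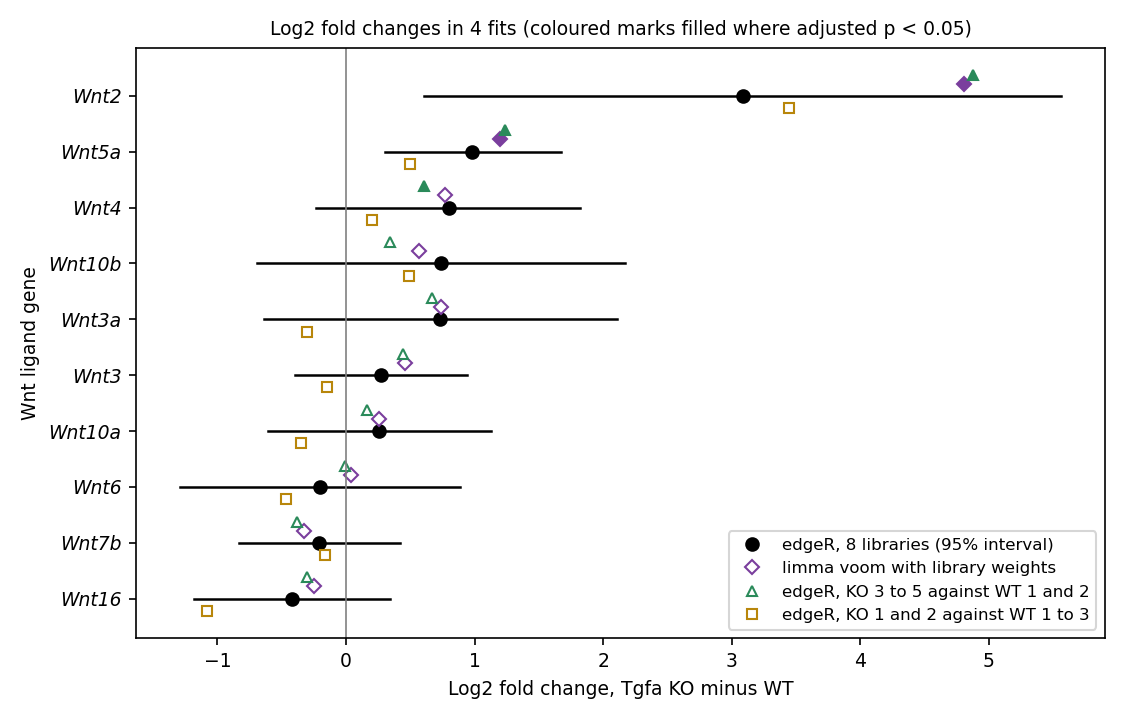
Log2 fold change (Tgfa KO minus WT) of each Wnt ligand gene in 4 fits: edgeR over 8 libraries with its 95% interval, limma voom with library weights, edgeR on KO replicates 3 to 5 against WT replicates 1 and 2, and edgeR on KO replicates 1 and 2 against WT replicates 1 to 3. Filled coloured marks passed an adjusted p of 0.05: Wnt2 and Wnt5a in 2 fits and Wnt4 in 1, while the value of Wnt3, Wnt3a and Wnt10a lies left of 0 in the last fit. Of those 2 fits, the weighted one gives little weight to the libraries left out of the other.

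The 10 ligands varied among libraries of the same genotype in 2 recognisable ways. Wnt3a, Wnt10b, Wnt10a and Wnt4 were all lowest among WT libraries in WT replicate 3, where the highest WT library was 3.94, 5.73, 2.90 and 4.41 times the lowest, against 1.25 times for Wnt7b, 1.35 times for Wnt3 and 1.17 times for Wnt5a. WT replicate 3 was also the lowest WT library in summed keratinocyte markers and the highest in Malat1, and the part of either was not tested. Within the KO group, libraries ending in bl averaged 2.35 times those ending in br for Wnt3a, 1.80 times for Wnt16, 1.74 times for Wnt10a, 1.73 times for Wnt4 and 1.51 times for both Wnt3 and Wnt5a, against 1.21 times for Wnt6, 1.10 times for Wnt10b, 0.921 times for Wnt7b and 0.652 times for Wnt2. Over the 8 libraries, log2 CPM of Wnt10a and Wnt4 had a Pearson r of 0.91 (Spearman rho 0.81) and that of Wnt10b and Wnt3a 0.87 (0.81). Wnt7b ran against Wnt5a (r -0.59, rho -0.74) and Wnt2 against Wnt16 (r -0.64, rho -0.64). These correlations are descriptions among 45 pairs of genes read from the same libraries, with their shared depth and background.

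Across the 10112 other tested genes with at least 5 CPM on average, the libraries' order in the 3 most abundant ligands was shared most closely by a few genes. Among the nearest to Wnt3 in log2 CPM were Tmem68 (Pearson r 0.985, Spearman rho 0.976) and Tent5a (0.952, 0.976). Nearest to Wnt7b were Zcchc14 (0.984, 0.952), Lamtor3 (0.983, 0.929) and Ddx24 (0.972, 0.976), and nearest to Wnt10a were Paics (0.981, 0.929), Snd1 (0.978, 1) and Jag2 (0.974, 1), the last a Notch ligand gene. Without the 2 libraries farthest from the median of the ligand, r was 0.882 to 0.992 for these 8 genes. They were picked from the highest of 10112 values over 8 libraries, and the lists did not share a gene.

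Several of the ligand genes sit beside another Wnt gene. Wnt10a lies next to Wnt6 on chromosome 1. Its TPM was 6.73 to 16.2 times that of Wnt6 in KO and 3.64 to 14.9 times in WT libraries. The lowest KO ratio was that of KO replicate 2, where 72.5% of the Wnt6 count was at the level of background reads. Beside Wnt3 on chromosome 11, Wnt9b was at 0.159 to 2.15 TPM in KO and 0.1055 to 0.791 TPM in WT libraries. Beside Wnt3a, Wnt9a was at 0.0598 to 2.30 TPM in KO and 0.744 to 3.50 TPM in WT libraries, where Wnt3a was at 1.13 to 11.6 TPM in KO and 1.36 to 6.33 TPM in WT libraries, so the ranges of this pair overlap. Wnt1, beside Wnt10b on chromosome 15, did not pass the filter, with counts of 21 in KO replicate 2 and 2 or fewer in the rest of the KO group, against 0, 6 and 4 in WT libraries. Around Wnt2 on chromosome 6, which also carries Tgfa, St7 had a log2 fold change of 0.65 (SE 0.51) and Asz1 did not pass the filter, while Fam3c and Cped1, beside Wnt16, had 0.27 and 0.68.

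The rest of the pathway was described by 85 genes in 10 lists, some of them in more than 1 list. None of the 70 tested passed the edgeR threshold in either direction, and 4 had an unadjusted p under 0.05, where 6.28% of all tested genes did. Their median log2 fold change was 0.18, near the 0.16 of all tested genes. Among the other Wnt ligands 6 of 9 were tested, with a median of 0.64, which was -0.09 without KO replicate 2, 0.19 without WT replicate 2 and 0.06 in unweighted voom. Wnt11 averaged 5.71 ± 2.69 CPM in KO and 3.45 ± 1.94 CPM in WT libraries (log2 fold change 0.72, edgeR adjusted p = 0.900), and Wnt2b 3.90 ± 1.78 CPM in KO and 2.63 ± 1.02 CPM in WT libraries (0.57). In the list of secretion and release 6 of 7 were tested, with a median of 0.21, which turned to -0.18 without KO replicate 2 and -0.05 without WT replicate 2. Wls, the carrier that takes Wnt proteins to the cell surface, was at 145 ± 33.0 CPM in KO and 154 ± 52.9 CPM in WT libraries. Porcn, on chromosome X, the enzyme that attaches the lipid to Wnt proteins, had 10.3, 4.86, 10.1, 15.5 and 18.7 CPM in KO replicates 1 to 5, against 6.44, 6.02 and 4.53 CPM in WT replicates 1 to 3 (log2 fold change 1.07, SE 0.41, adjusted p = 0.689 by edgeR). KO replicate 2 was the 1 KO library of Porcn within the WT range. Gpc4, a glypican, had a log2 fold change of 0.38.

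Among receptors, the 9 tested of 10 Frizzled genes had a median of 0.39, the 6 co-receptors 0.16 and the 6 tested of 9 R-spondin and Lgr genes 0.12. The Frizzled median turned to -0.18 without WT replicate 2 and was 0.17 without KO replicate 2. The co-receptor median turned to -0.17 among libraries ending in br, -0.10 with the ending as a covariate and -0.02 without WT replicate 3, and was 0.43 without WT replicate 1. The R-spondin and Lgr median ranged from -0.01 without WT replicate 3 to 0.38 without WT replicate 1. Fzd6, the most abundant Frizzled gene per length and one that orients hairs in mouse skin, averaged 108 ± 29.9 CPM in KO and 70.5 ± 7.42 CPM in WT libraries (log2 fold change 0.62, SE 0.28, adjusted p = 0.808 by edgeR). Fzd10 averaged 59.3 ± 12.7 CPM in KO and 45.4 ± 5.57 CPM in WT libraries (0.39). The receptors of the other branch, Ptk7 and Ryk, had log2 fold changes of 0.14 and -0.02, and the beta-catenin co-receptor Lrp5 had 0.31. Lgr4 and Lgr6, R-spondin receptors, had -0.02 and 0.18, and Lgr5, a marker of hair follicle stem cells, had 0.90 (SE 0.73). Its values were 2.14, 25.4, 3.25, 5.53 and 9.95 CPM in KO replicates 1 to 5, against 6.10, 5.09 and 3.44 CPM in WT replicates 1 to 3.

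Of 14 inhibitor genes 7 were tested, 6 of them positive, with a median of 0.42, which was 0.95 without WT replicate 3, 0.28 without KO replicate 2 and 1.37 among libraries ending in br. Igfbp4 and Sostdc1 were the 2 with an unadjusted p under 0.05. Igfbp4, which encodes an IGF-binding protein that also inhibits beta-catenin signalling in heart development, had 30.3, 36.6, 26.9, 36.2 and 40.3 CPM in KO replicates 1 to 5, against 10.4, 8.67 and 13.3 CPM in WT replicates 1 to 3. The groups did not overlap (log2 fold change 1.66, SE 0.24, adjusted p = 0.220 by edgeR). Sostdc1, a secreted inhibitor of Lrp5 and Lrp6 and of BMPs that hair follicle cells express, had 12.3, 19.3, 28.3, 47.4 and 45.7 CPM in KO replicates 1 to 5, against 10.1, 9.39 and 5.16 CPM in WT replicates 1 to 3. Here too the groups did not overlap (1.90, SE 0.48, adjusted p = 0.487 by edgeR). Of all tested genes, 3.4% had every KO library above every WT library. Both rose in DESeq2 (Igfbp4 adjusted p = 8.96e-07, Sostdc1 adjusted p = 0.0202). There 97 of the 43007 genes with a p-value rose (0.226%). DESeq2 gives genes of low mean count no adjusted p, and how many it left out was not recorded. The share thus cannot be set beside those over the 19239 genes of edgeR. On data simulated for this comparison DESeq2 made 75 false calls, against 4 for edgeR. The simulated counts covered only the 19239 genes of edgeR, used its estimates of spread and held no background reads. The number of false calls in the measured libraries may therefore differ. Sfrp1, which binds Wnt proteins directly, averaged 50.8 ± 10 CPM in KO and 40.6 ± 21.1 CPM in WT libraries (0.32).

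Inside the cell, the 10 genes of the beta-catenin machinery had a median of -0.05, the 4 TCF/LEF genes 0.46 and the 14 tested of 16 target genes 0.03. The TCF/LEF median was 0 without KO replicate 2, with 2 of 4 genes negative, 0.08 without WT replicate 2 and 0.02 in unweighted voom. With 1 library left out, the medians ranged from -0.30 to -0.01 for the machinery and from -0.13 to 0.24 for the target genes, with the lowest of both without WT replicate 2. Ctnnb1, which encodes beta-catenin, averaged 363 ± 98.9 CPM in KO and 386 ± 65.5 CPM in WT libraries (log2 fold change -0.09). Csnk1a1, a kinase of the machinery that marks beta-catenin for destruction, had -0.14. Tcf7 and Tcf7l2 had 0.12 and 0.28, and Lef1 had 1.33 (SE 1.22). Lef1 was at 15.6 CPM in KO replicate 2 and ranged from 0.295 to 4.87 CPM in the remaining KO libraries, against 0.952 to 2.97 CPM in the WT libraries. Axin2, the usual readout of beta-catenin signalling, had 37.9, 35.6, 53.0, 62.2 and 44.2 CPM in KO replicates 1 to 5, against 41.5, 35.65 and 29.3 CPM in WT replicates 1 to 3. The groups overlapped (log2 fold change 0.39, SE 0.24, adjusted p = 0.871 by edgeR). Myc and Apcdd1, the most abundant of the target genes per length, had -0.48 and -0.04. Tnks2, a tankyrase that acts on Axin proteins, had -0.38.

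Of the planar polarity genes, all 10 were tested and 8 were positive, with a median of 0.35. The median was 0.08 without WT replicate 3, and it turned to -0.07 with the ending as a covariate and -0.18 among libraries ending in br, with 5 positive and 5 negative genes in each. Vangl1, a membrane protein of the core polarity complex, had 39.9, 45.0, 49.0, 63.0 and 62.8 CPM in KO replicates 1 to 5, against 28.0, 27.85 and 20.6 CPM in WT replicates 1 to 3. Its groups did not overlap, where 3.4% of all tested genes had every KO library above every WT library. The log2 fold change of Vangl1 was 1.03 (SE 0.24, adjusted p = 0.431 by edgeR). It rose in DESeq2 (adjusted p = 0.00901). Celsr1, which orients hairs in mouse skin, averaged 293 ± 122 CPM in KO and 268 ± 172 CPM in WT libraries (0.13), and Celsr2 averaged 414 ± 145 CPM in KO and 243 ± 86.0 CPM in WT libraries (0.77).

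In the fit with library weights, in which 6.46% of all genes were called, 7 of the 70 tested pathway genes passed. Igfbp4, Sostdc1, Vangl1, Porcn, Fzd6 and Celsr2 rose, with log2 fold changes of 1.80, 1.96, 1.04, 1.13, 0.75 and 0.86 (limma voom adjusted p from 0.00251 to 0.0450). Fzd5, another Frizzled receptor gene, fell (-0.91, adjusted p = 0.0374). Without WT replicate 3 and KO replicates 1 and 2, in which 10.6% of all genes were called, the same 6 rose and Fzd5, Myc and Tnks2 fell (-1.14, -0.83 and -0.44, edgeR adjusted p = 0.0172, 0.00690 and 0.0479). Genotype and label ending coincide in that subset. The weighted fit gives the libraries left out of it little weight, so it is no separate check. With the ending as a covariate, which leaves KO replicates 1 and 2 against WT for genotype, edgeR called 0 pathway genes. In that fit 4 of the 70 tested pathway genes had an unadjusted p under 0.05, as did 1449 of all 19239 tested genes. Among libraries ending in br alone edgeR called 0 of 22750 genes in all, and 537 of them, 2 from the pathway, had an unadjusted p under 0.05.

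**Figure D5:**
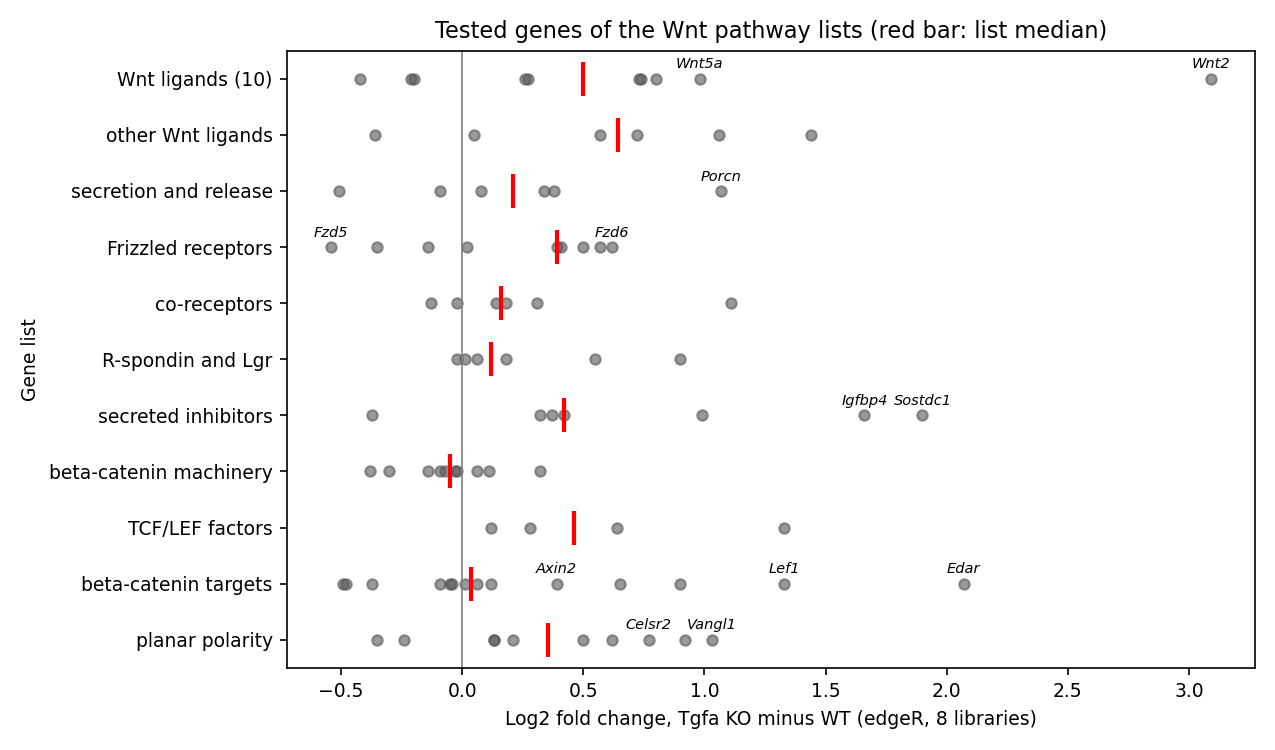
Log2 fold change (Tgfa KO minus WT, edgeR over 8 libraries) of each tested gene in the lists of the Wnt pathway, 1 row a list, with a red bar at the list's median and genes held by several lists drawn in each. The medians lie between -0.05 for the beta-catenin machinery and 0.64 for the other Wnt ligands, and no gene shown passed the edgeR threshold.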

How the data were processed

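The labelled genotype gave the groups, and replicates were numbered in accession order, so the numbers pair no libraries. Per the labels' protocols, total RNA was sequenced as paired-end libraries. The submitters' processing notes name STAR 2.5.2b, featureCounts (Subread 1.5.2) and Trimmomatic 0.36. The authors deposited whole-number counts per gene without normalization, and the gene length given per the file headers was used for TPM. The sources used here do not say whether counting used strand or kept reads with several hits, so reads of overlapping or antisense genes were not told apart. Symbols were found for 48970 of 49315 genes, and coordinates are those of the files, on GRCm38, which GENCODE M21 shares.

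The test across genes was that of edgeR 4.0.16 in R 4.3.3 (quasi-likelihood test, TMM, filterByExpr, genotype as the 1 factor, Benjamini-Hochberg adjusted p under 0.05). Single genes were also compared by two-sided exact permutation of log2 CPM (prior count 2) over 56 splits. Alternatives were DESeq2 1.42.0, limma 3.58.1 voom with and without library weights, other scalings and filters, subtracted background, the label ending as a covariate, subsets of libraries and each library left out. Background was the count per kb on autosomal genes of at least 500 bp with 0 counts in every other library whose olfactory and vomeronasal receptor genes summed to under 100 CPM. Promoters came from RefSeq (GRCm38.p6), and motifs were counted on both strands. On data simulated for the KO against WT comparison over 19239 genes, edgeR recovered 2% of 2-fold, 32% of 4-fold and 70% of 16-fold changes. All pairs of libraries of a group differed by more than sampling noise (lowest chi-square per gene 14.98, KO replicates 3 and 4). The members and gene lists were chosen with earlier results of these data known. The text names all 10 members and, per list, the 2 genes highest in TPM, the 1 with the smallest p and any called. Fzd5 and the other genes called only in alternative fits were named after their values were seen. A gene that a rule would name is not reported here.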

Additional observations from a re-analysis of the deposited data

How the results depend on the processing

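The call of 0 of 10 ligands was the same under edgeR with RLE, upper-quartile or total scaling, other filters, the label ending as a covariate, subtracted background, libraries ending in br, WT against KO libraries ending in bl, DESeq2, unweighted voom and each library left out, and it became 2 with library weights and 3 without WT replicate 3 and KO replicates 1 and 2. The 0 pathway genes became 3 in DESeq2, 1 with no filter, 7 with library weights and 9 without those 3 libraries. Over all genes, the 1 call became 137 in DESeq2, 21 for WT against KO ending in bl, 9 with no filter, 1243 with library weights, 1883 without the 3 libraries, and 0 with RLE factors, upper-quartile factors, unweighted voom or libraries ending in br (with 1225, 1389, 1386 and 537 genes at an unadjusted p under 0.05), and 0 to 1 with 1 library left out. The direction of Wnt3 turned to -0.11 with the label ending as a covariate, -0.15 in libraries ending in br and -0.07 without WT replicate 2, which made its range over left-out libraries -0.07 to 0.44. Wnt3a turned to -0.17 with the covariate and -0.30 in libraries ending in br, and Wnt10a to -0.27, -0.35 and, without WT replicate 3, -0.09, with a range over left-out libraries of -0.09 to 0.57. Wnt6 turned to 0.04 with library weights. The cause was not tested. Wnt2, Wnt4, Wnt5a and Wnt10b stayed positive, and Wnt7b and Wnt16 negative, in all 21 alternatives, with Wnt2 at 2.35 to 5.12 and Wnt5a at 0.67 to 1.14 over left-out libraries. No paired analysis was possible because the labels give the libraries no replicate numbers. Depth limits the low members: KO replicate 2, with 5313552 counts in all, held 19 counts of Wnt6, 20 of Wnt2, 31 of Wnt16, 38 of Wnt3a and 39 of Wnt10b.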
